A study of Mus musculus with 9 samples.

Results

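The Kruppel-like factors are zinc finger transcription factors, and 10 of their genes (Klf2, Klf3, Klf4, Klf6, Klf7, Klf9, Klf10, Klf11, Klf12 and Klf13) are described here in group 2 innate lymphoid cells (ILC2s) of the mouse pancreas. The 10 are rows of a count table of 20732 genes and were chosen by gene symbol, from a list drawn up with earlier values of the IL-33 against PBS contrast known. That contrast is therefore given for them as a description. Mice of the C57BL6/J genotype received 200 ng of IL-33, a cytokine that activates ILC2s through the receptor ST2, on days 0 and 1, or PBS alone. Pancreata were taken on day 5, and live CD45+ cells without CD3, B220 or lineage markers and with KLRG1 were sorted for RNA sequencing. The sample labels give 4 PBS libraries, titled naive, and 5 IL-33 libraries, while the series' design text gives these numbers the other way round. The labels were followed, and they do not say whether each library came from its own mouse.

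The family shares a DNA-binding end of C2H2 zinc fingers that reads GC-rich and CACCC sequences, and its members differ in the rest of the protein. KLF2, KLF4, KLF6 and KLF7 belong to a group that acts largely by recruiting acetyltransferases. KLF3 and KLF12 bind the co-repressor CtBP, and KLF9, KLF10, KLF11 and KLF13 bind the co-repressor Sin3A. In lymphocytes KLF2 is best known for holding cells in quiescence and for driving genes of circulation through lymphoid tissue, and KLF4 for restraining the division of naive T cells.

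Total counts lay between 14216976 and 21020023 per library, and 14405 genes passed a filter on low counts, among them 9 of the 10 members. Values are counts scaled to library size (CPM) after TMM scaling, which corrects for differences in library make-up, and changes are log2 ratios of IL-33 over PBS with their SE from edgeR. A gene was called when its adjusted p was below 0.05. Of 14 ILC2 markers, Gata3 stood at 2988 CPM or more in every library and Il1rl1, which encodes ST2, at 622 CPM or more. Il17rb was less abundant, at 38.0 to 87.5 CPM, and Il13 was at 54.6 to 139 CPM with PBS. With IL-33, 4 of the 14 were called higher and 3 lower, Il7r among the latter, beside 13.7% and 11.6% of all tested genes. Of the T cell receptor complex genes, Cd3e reached at most 9.32 CPM while Cd3g stood at 221 to 342 CPM, and the T cell markers summed to 331 to 514 CPM. The B cell markers, mostly Ighm, summed to 420 to 577 CPM with PBS and to 177 to 408 CPM with IL-33. PBS replicate 4 was rich in acinar transcripts, whose 14 markers summed to 645800 CPM against 928 to 99596 CPM in the other libraries.

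In libraries of cells sorted from IL-33-treated mice, Klf4, Klf9, Klf3, Klf2, Klf6 and Klf13 had lower CPM than in those from PBS-treated mice. Klf7, Klf10 and Klf11 were not called. Klf4 had the largest fall of the members, by 3.30 on the log2 scale. No member was called higher. Of the 9 members tested, 6 were called lower, beside 11.6% of all 14405 genes called lower, 13.7% called higher and 25.2% called in either direction. The groups did not overlap, with every IL-33 library lower, for 4 members (Klf3, Klf4, Klf6 and Klf9), beside 10.8% of all genes. Nothing is read from these shares, since the members were listed with the contrast known. In bulk RNA, fewer cells of a type and less RNA per cell cannot be told apart.

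All 6 stayed called when any 1 of the 9 libraries was left out, and at a threshold of 0.01 Klf2 and Klf13 were not called. With library size alone in place of TMM, Klf6 (log2 change -0.96) and Klf13 (-0.90) were no longer called. That scaling moved the median of all genes by 0.13 on the log2 scale, and 67.4% of its 1976 calls were higher with IL-33, against 54.1% of the 3633 calls with TMM.

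**Figure D1:**
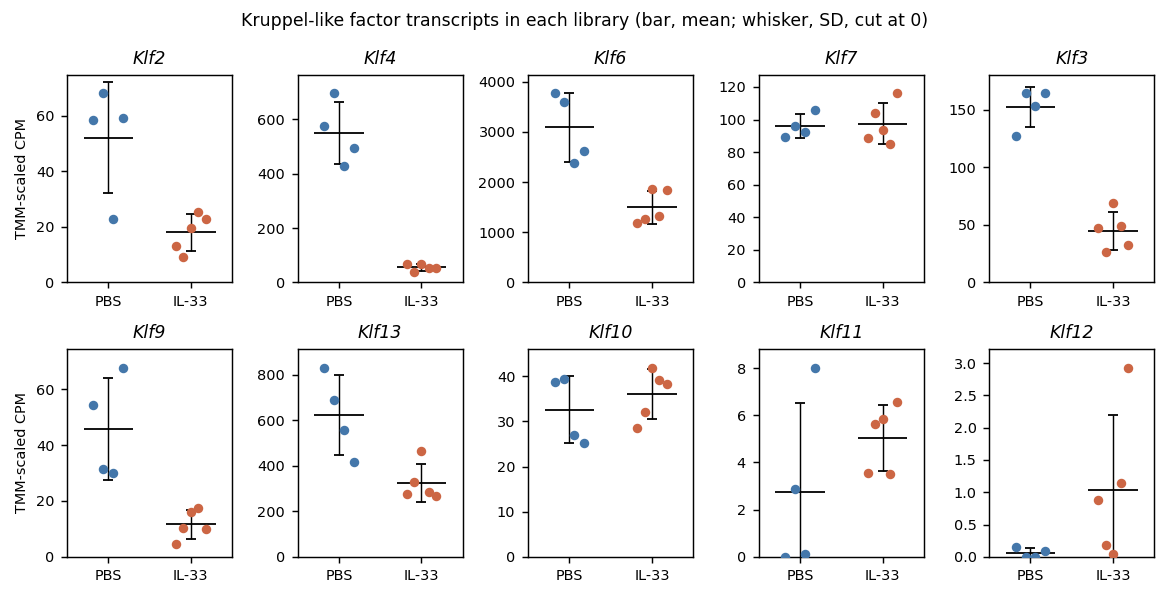
TMM-scaled CPM of each member (vertical axis, linear from 0, scaled per gene) in the 4 PBS and 5 IL-33 libraries (points), with mean (bar) and SD (whisker). Klf4 lies at 429 to 695 CPM with PBS and at 37.3 to 68.8 CPM with IL-33, while the groups of Klf7 and Klf10 lie over each other.

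Per kilobase of exon, which allows genes of different length to be compared, Klf6 was the most abundant member in both groups. With PBS the order of mean levels was Klf6 (704 CPM per kilobase), Klf4 (180), Klf13 (82.8), Klf2 (28.2), Klf3 (13.5), Klf7 (11.8), Klf9 (9.51), Klf10 (7.80), Klf11 (0.634) and Klf12 (0.00887). The ranges of neighbours overlapped from Klf2 to Klf10 and for Klf11 and Klf12, and were apart elsewhere. With IL-33 the order was Klf6 (341 CPM per kilobase), Klf13 (43.0), Klf4 (18.2), Klf7 (12.0), Klf2 (9.78), Klf10 (8.62), Klf3 (3.99), Klf9 (2.43), Klf11 (1.16) and Klf12 (0.148). There the ranges were apart between Klf6 and Klf13, Klf13 and Klf4, Klf10 and Klf3, and Klf11 and Klf12, and overlapped for the other neighbours.

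The summed level of the 10 members was 1038 ± 219 CPM per kilobase over the 4 PBS libraries and 440 ± 86.7 over the 5 IL-33 libraries (SD). It ran from 808 to 1232 in the PBS libraries and from 360 to 549 in the IL-33 libraries, without overlap. The make-up of that pool also differed. Klf4 held 17.4% ± 1.47 of it with PBS (SD, n = 4) and 4.22% ± 1.13 with IL-33 (SD, n = 5). The share of Klf6 was 67.7% ± 1.35 with PBS and 77.2% ± 2.60 with IL-33, and in neither case did the groups overlap. Klf7 held 1.18% ± 0.291 and 2.78% ± 0.483, and Klf10 0.75% ± 0.0544 and 1.98% ± 0.235, again without overlap, although the levels of these members did overlap between the groups. The shares of Klf13, 7.95% ± 1.41 and 9.88% ± 1.91, overlapped.

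Within a library, the level of Klf4 per kilobase was 1.71, 2.49, 1.90 and 2.95 times that of Klf13 in PBS replicates 1 to 4. In IL-33 replicates 1 to 5 it was 0.591, 0.279, 0.366, 0.464 and 0.483 times that of Klf13. Per kilobase, Klf4 thus stood above Klf13 in each PBS library and below it in each IL-33 library. Scaling between libraries cannot change this comparison, but it depends on the division by exon length. In CPM, Klf4 was below Klf13 in PBS replicates 1 (576 against 831) and 3 (429 against 559). It was above Klf13 in PBS replicates 2 (695 against 688) and 4 (495 against 415), and below it in every IL-33 library. The ratio of Klf13 to Klf6 was 0.117 ± 0.0197 in the PBS libraries and 0.129 ± 0.0271 in the IL-33 libraries (SD), which overlapped.

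**Figure D2:**
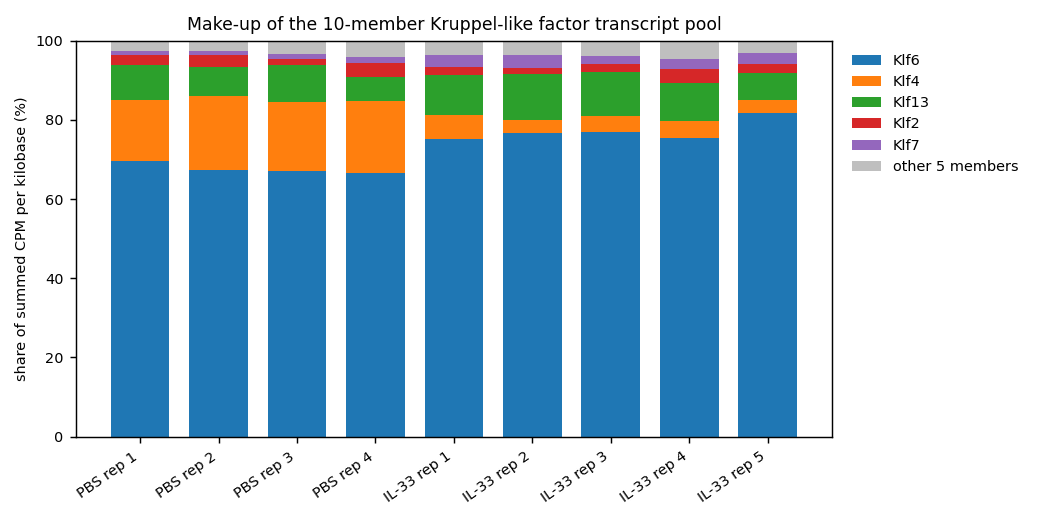
Share of each member in the summed CPM per kilobase of the 10 members (vertical axis, percent), 1 bar per library. Klf6 makes up most of every bar, and the Klf4 segment is 15.3% to 18.7% of the PBS bars and 3.25% to 6.03% of the IL-33 bars.

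Among the members that recruit acetyltransferases, Klf4 and Klf6 were separate between the groups, Klf2 was lower with some overlap and Klf7 was level. Klf4 (ENSMUSG00000003032, GRCm38 chromosome 4, 55527143 to 55532466, minus strand) is also known as a reprogramming factor and as a gene induced rapidly by stimulation. It stood at 576, 695, 429 and 495 CPM in PBS replicates 1 to 4 and at 66.3, 37.3, 68.8, 53.3 and 51.9 CPM in IL-33 replicates 1 to 5. Even the lowest PBS library was several-fold above the highest IL-33 library. The log2 change was -3.30 ± 0.21 (SE), or 9.88-fold lower, and by mean CPM Klf4 moved from place 242 to place 3080 among the 14405 genes. Leaving out any 1 library kept the log2 change between -3.41 and -3.17.

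Klf6 (ENSMUSG00000000078, chromosome 13, 5861482 to 5870394, plus strand) is a widely expressed member that is induced early after injury and activation. It was among the most abundant transcripts of the cells, at place 39 with PBS and 75 with IL-33. Its level was 3768, 3602, 2383 and 2615 CPM in PBS replicates 1 to 4. With IL-33 it was 1190, 1269, 1854, 1316 and 1852 CPM in replicates 1 to 5, all below the PBS libraries. The log2 change was -1.05 ± 0.19 (SE), or 2.07-fold lower.

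Klf2 (ENSMUSG00000055148, chromosome 8, 72319033 to 72321656, plus strand) stood at 58.6, 68.0, 22.7 and 59.1 CPM in PBS replicates 1 to 4. In IL-33 replicates 1 to 5 it stood at 13.0, 9.32, 19.6, 25.4 and 22.9 CPM. PBS replicate 3 lay within the range of the IL-33 libraries and the other PBS libraries lay above it. The log2 change was -1.53 ± 0.37 (SE), and -1.78 without PBS replicate 3.

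Klf7 (ENSMUSG00000025959, chromosome 1, 64029447 to 64122282, minus strand), a member known from neuronal development, was at 95.8 ± 7.21 CPM (SD, n = 4) and 97.4 ± 12.6 CPM (SD, n = 5). It ran from 89.1 to 106 CPM with PBS and from 84.8 to 116 CPM with IL-33. The log2 change was 0.02 ± 0.12 (SE), and its sign changed with the scaling. Exons of Klf7 overlap 3196 bases of a lincRNA gene on the opposite strand, and without strand information reads of the pair cannot be told apart.

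The promoters of Klf2, Klf4, Klf6 and Klf9 are printed as examples of members called lower, since Klf4 and Klf6 are the most abundant with PBS and Klf2 and Klf9 hold letters of factors known upstream of the family. Shown are the 200 bases before each gene's start in the RefSeq annotation of GRCm38.p6, on the gene's strand. Capitals mark the letters of GC boxes (GGGCGG), of CACCC boxes, of the MEF2 motif in Klf2 and of the FOXO motif in Klf9 (TGTTTAC), each on either strand.
Klf2 (chr8:72318862-72319061, plus strand): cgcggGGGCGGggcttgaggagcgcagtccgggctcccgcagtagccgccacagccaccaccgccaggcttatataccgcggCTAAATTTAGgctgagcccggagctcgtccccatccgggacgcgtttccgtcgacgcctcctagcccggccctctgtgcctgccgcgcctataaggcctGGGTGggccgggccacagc
Klf4 (chr4:55532476-55532675, minus strand): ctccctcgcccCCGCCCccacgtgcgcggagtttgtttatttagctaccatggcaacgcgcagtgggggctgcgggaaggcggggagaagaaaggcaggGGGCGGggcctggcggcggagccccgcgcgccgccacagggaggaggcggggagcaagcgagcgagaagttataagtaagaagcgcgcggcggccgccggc
Klf6 (chr13:5861289-5861488, plus strand): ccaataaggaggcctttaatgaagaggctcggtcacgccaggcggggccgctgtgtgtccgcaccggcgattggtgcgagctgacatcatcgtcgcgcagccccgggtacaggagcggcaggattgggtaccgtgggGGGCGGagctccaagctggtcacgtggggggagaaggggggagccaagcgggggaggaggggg
Klf9 (chr19:23141026-23141225, plus strand): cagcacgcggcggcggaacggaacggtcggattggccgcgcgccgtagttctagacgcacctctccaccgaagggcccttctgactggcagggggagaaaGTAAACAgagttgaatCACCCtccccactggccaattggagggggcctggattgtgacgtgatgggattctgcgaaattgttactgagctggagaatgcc

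Windows of 300 bases, from 250 before to 50 after the start, were matched for 9 of the 10 members, all except Klf10, and searched on both strands. The MEF2 motif, read by the factors through which the kinase ERK5 induces Klf2, begins 118 bases before the start of Klf2 and lies in 0.557% of all 32851 promoter windows. No other matched member held it. The FOXO motif begins 100 bases before the start of Klf9, alone among the matched members, and lies in 3.65% of all windows. GC boxes were in 7 of the 9 matched members and in 35.7% of all windows, and CACCC boxes in 6 of the 9 and in 57.5% of all windows. In Klf4 the GC boxes of the printed stretch begin 189 and 101 bases before the start, and in Klf6 the 1 GC box begins 63 bases before it. The CRE (TGACGTCA), AP-1 (TGAGTCA) and CArG letters were found in no matched member. These matches are descriptions of letters and not of binding.

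Klf2 and Klf4 are also known for high levels in endothelium, and Klf2, Klf4 and Klf6 as genes induced early by stimulation, so both kinds of marker were read beside them. The 10 endothelial markers summed to 116, 58.3, 155 and 241 CPM in PBS replicates 1 to 4 and to 30.0 to 67.6 CPM in the IL-33 libraries. Pecam1 was the largest single part of the sum in every library, at 65.6, 33.9, 63.9 and 89.3 CPM in PBS replicates 1 to 4. In the IL-33 libraries it stood at 17.3 to 52.7 CPM. Of the 10, Kdr, Tie1 and Ptprb were called lower, beside 11.6% of all tested genes, and the others were not called. The log2 change of each of the 10 was negative, with a median of -2.84 beside -0.05 over all genes. Kdr was at 0 in IL-33 replicates 1, 2 and 5, and Cdh5 was at 0 in PBS replicate 2 and in IL-33 replicates 2, 4 and 5. In PBS replicate 2, with the lowest endothelial sum of the PBS group, Klf4 was at 695 CPM and Klf2 at 68.0 CPM. In PBS replicate 4, with the highest sum, they were at 495 and 59.1 CPM. They were at 576 and 58.6 CPM in PBS replicate 1 and at 429 and 22.7 CPM in PBS replicate 3. Kdr, Tie1, Ptprb and Cldn5 were higher in PBS replicate 2 than in every IL-33 library. The other markers in PBS replicate 2 lay within the range of the IL-33 libraries.

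A fit with the endothelial markers as a covariate was added after the data were seen. The covariate was log2 of their share of each library's total count, without TMM scaling. It nearly separates the groups, so endothelial content and treatment are hard to tell apart in this fit. There 235 genes were called in all, against 3633 without the covariate. Klf4 was then still called (log2 change -3.30), and the other 5 were not (Klf2 -1.98, Klf3 -1.21, Klf6 -1.18, Klf9 -1.40 and Klf13 -0.73). With the acinar share, taken in the same way, as a covariate all 6 were called. Some markers of further cell types also differed between the groups. The B cell gene Ighm (log2 change -1.61), the epithelial gene Epcam (-4.43) and the fibroblast gene Col1a2 (-4.41) were called lower. The other tested B cell marker, Cd79b, was called higher (2.18). The other tested epithelial markers, Krt18 (-1.86), Krt8 (-1.55) and Sox9 (-2.95), were not called. Nor were the other tested fibroblast markers, Col3a1 (-0.39) and Dcn (-1.03). All 4 tested erythroid markers were called higher, and that list summed to 168 to 323 CPM with PBS and to 369 to 3568 CPM with IL-33. The part of other cell types in the values of any member, Klf4 included, was not tested beyond the covariate fits.

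**Figure D3:**
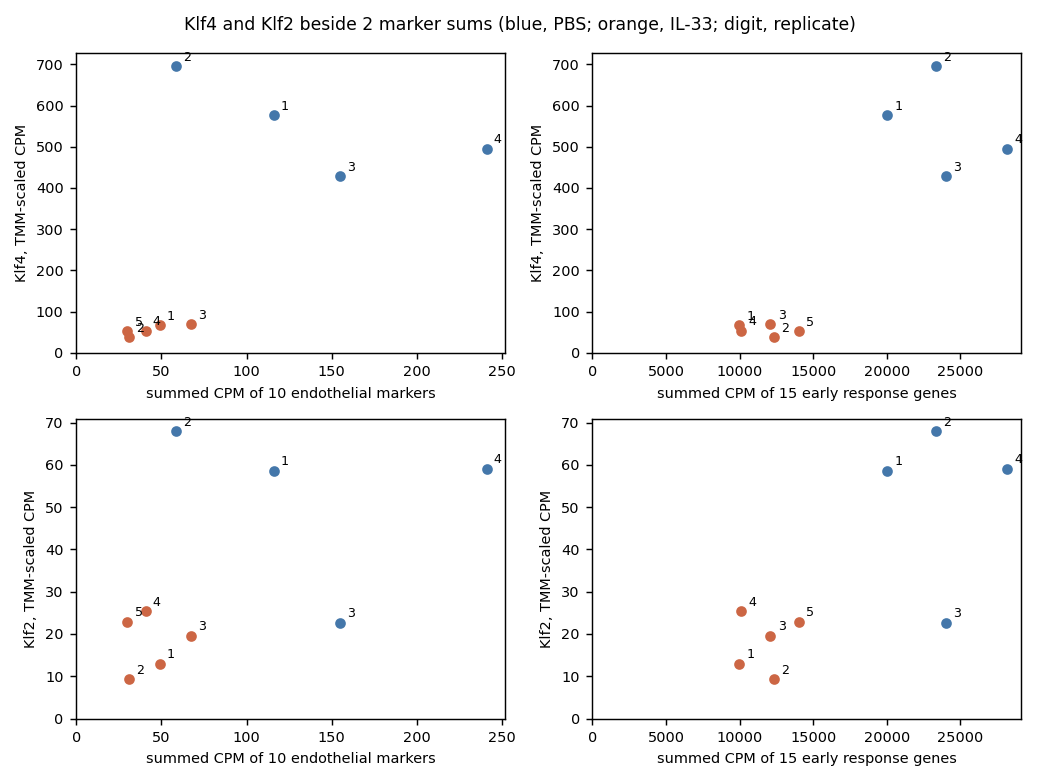
TMM-scaled CPM of Klf4 (top) and Klf2 (bottom) in each library against the summed CPM of 10 endothelial markers (left) and of 15 early response genes (right), linear axes from 0. PBS replicate 2 pairs an endothelial sum of 58.3 CPM, of which Pecam1 is 33.9 CPM, with the highest Klf4 and Klf2. PBS replicate 3 pairs a sum of 155 CPM with the lowest Klf4 and Klf2 of the PBS group. The early response sums of the groups are apart.

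Of the 15 early response and heat shock genes, 6 fell and 9 were not called, beside 11.6% of all tested genes called lower. The median log2 change of the 15 was -1.01, beside -0.05 over all genes. Btg2, an antiproliferative gene, fell (log2 change -2.43, edgeR adjusted p = 6.8e-06), as did the transcription factor genes Atf3 (-2.91, adjusted p = 7.5e-06) and Egr1 (-2.69, adjusted p = 7.1e-05). Fosb (-2.20), Ier2 (-1.56) and Fos (-1.44) fell as well. Nr4a1, at 5783 ± 1876 and 3910 ± 526 CPM (edgeR adjusted p = 0.0792), and Zfp36, at 2232 ± 514 and 1608 ± 395 CPM (edgeR adjusted p = 0.130), were not called (SD, n = 4 and n = 5). Their sums ran from 20001 to 28178 CPM with PBS and from 9981 to 14017 CPM with IL-33. The 6 called genes had the same direction as Klf2, Klf4 and Klf6, while Ier3 (log2 change 0.63), Hspa1a (0.55) and Hspa1b (0.32), named after their values were seen, were not called. The rest of the 9 genes not called, the heat shock genes Hsph1 (-0.70) and Dnajb1 (-1.30) among them, had negative log2 changes. Whether handling of the tissue had a part was not tested.

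Of the CtBP-binding members, Klf3 was separate between the groups and Klf12 was close to the limit of detection. Klf3 (ENSMUSG00000029178, chromosome 5, 64803388 to 64832901, plus strand) is a repressor known in mouse for roles in B cell and fat cell differentiation. It stood at 127, 164, 153 and 164 CPM in PBS replicates 1 to 4 and at 47.3, 26.3, 69.0, 48.9 and 32.7 CPM in IL-33 replicates 1 to 5. The IL-33 libraries were all lower, with a log2 change of -1.76 ± 0.25 (SE), or 3.38-fold. The coefficient of variation was 11.5% with PBS and 36.9% with IL-33. Klf3 has the longest exons of the members (11243 bases), and lies in the fifth of tested genes with the longest exons, whose median log2 change was -0.47, against 0.40 in the fifth with the shortest. Klf13 (-0.94) and Klf7 (0.02) are of the same length class, and the part of length was not tested. Exons of Klf3 overlap 404 bases of a transcript on the opposite strand.

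Klf12 (ENSMUSG00000072294, chromosome 14, 99870632 to 100284679, minus strand) did not pass the filter on low counts. It had 3, 0, 0 and 1 counts in PBS replicates 1 to 4 and 16, 3, 1, 24 and 66 counts in IL-33 replicates 1 to 5. Most IL-33 counts came from replicate 5, and the groups overlapped. No fold change is given for it.

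Of the Sin3-binding members, Klf9 and Klf13 were lower and Klf10 and Klf11 were not called. Klf13 (ENSMUSG00000052040, chromosome 7, 63886351 to 63938915, minus strand), known in T cells for the late expression of the chemokine Ccl5, was the most abundant of them. It stood at 831, 688, 559 and 415 CPM in PBS replicates 1 to 4 and at 277, 330, 465, 284 and 265 CPM in IL-33 replicates 1 to 5. The ranges overlapped through PBS replicate 4 and IL-33 replicate 3, and the log2 change was -0.94 ± 0.23 (SE).

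Klf9 (ENSMUSG00000033863, chromosome 19, 23141226 to 23168134, plus strand) is a direct target of the glucocorticoid receptor in many tissues. It stood at 54.3, 31.3, 29.9 and 67.7 CPM in PBS replicates 1 to 4. With IL-33 it stood at 4.59, 10.4, 16.2, 17.3 and 9.94 CPM in replicates 1 to 5, all below the PBS libraries. The log2 change was -1.97 ± 0.40 (SE), or 3.91-fold, after Klf4 the largest among the members called.

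Klf10 and Klf11, both first described as genes induced early by TGF-beta, showed no such fall. Klf10 (ENSMUSG00000037465, chromosome 15, 38291463 to 38300706, minus strand) was at 38.8, 39.3, 27.1 and 25.2 CPM with PBS and at 28.5, 32.1, 41.9, 39.2 and 38.4 CPM with IL-33. The groups overlapped, with a log2 change of 0.14 ± 0.20 (SE). Klf11 (ENSMUSG00000020653, chromosome 12, 24651274 to 24662789, plus strand) had 0, 48, 2 and 84 counts in PBS replicates 1 to 4 and 64, 95, 126, 74 and 148 counts in IL-33 replicates 1 to 5. It was detected in every IL-33 library and unevenly with PBS, and its log2 change of 0.88 ± 1.21 (SE) was smaller than its error. That value depended on the libraries and the tool, at 2.31 without PBS replicate 4, 0.46 without PBS replicate 1, 0.48 without PBS replicate 3, 3.74 with limma voom and 2.81 with limma-trend, and Klf11 was called in none of these fits.

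Of the KLF genes outside the 10 members, 4 were in the count table. Klf5 alone was called, beside 25.2% of all tested genes called in either direction. Klf5, a proliferation-linked member best known from gut epithelium, went down, its mean being 137 ± 40.4 CPM in 4 PBS libraries and 37.9 ± 7.57 CPM in 5 IL-33 libraries (SD), with the log2 ratio at -1.86 ± 0.22 (SE) and an edgeR adjusted p of 4.4e-04. It stood at 99.8, 108, 184 and 158 CPM in PBS replicates 1 to 4 and at 42.7, 36.5, 48.2, 29.3 and 33.0 CPM in IL-33 replicates 1 to 5, without overlap. Klf16, a Sin3-binding repressor, was at 19.0 ± 1.28 and 12.6 ± 2.77 CPM (SD, n = 4 and n = 5; edgeR adjusted p = 0.0627), with every IL-33 library lower, and was called by DESeq2 (adjusted p = 0.0328) and by limma-trend (adjusted p = 0.0422). Klf8, a CtBP-binding member, and Klf15, a metabolic regulator, were detected in some libraries only and were not called (edgeR adjusted p = 0.508 and 0.383). Klf5 was not called with the endothelial share as a covariate (log2 change -1.14, edgeR adjusted p = 0.134).

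The SP factors share the zinc fingers of the family and bind the same GC boxes. Of 4 tested, 2 fell, beside 11.6% of all tested genes. Sp4 fell from 33.9 ± 8.76 to 13.2 ± 3.71 CPM (edgeR adjusted p = 0.00484) and Sp1 from 53.2 ± 6.34 to 28.2 ± 6.91 CPM (edgeR adjusted p = 0.00980), both without overlap (SD, n = 4 and n = 5). Sp3, at 52.5 ± 20.1 and 33.1 ± 11.1 CPM (edgeR adjusted p = 0.157), and Sp2, at 17.4 ± 10.5 and 22.8 ± 6.72 CPM (edgeR adjusted p = 0.508), were not called. The median log2 change of the 4 was -0.79. Only 1 of the 4 was called with library size alone.

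**Figure D4:**
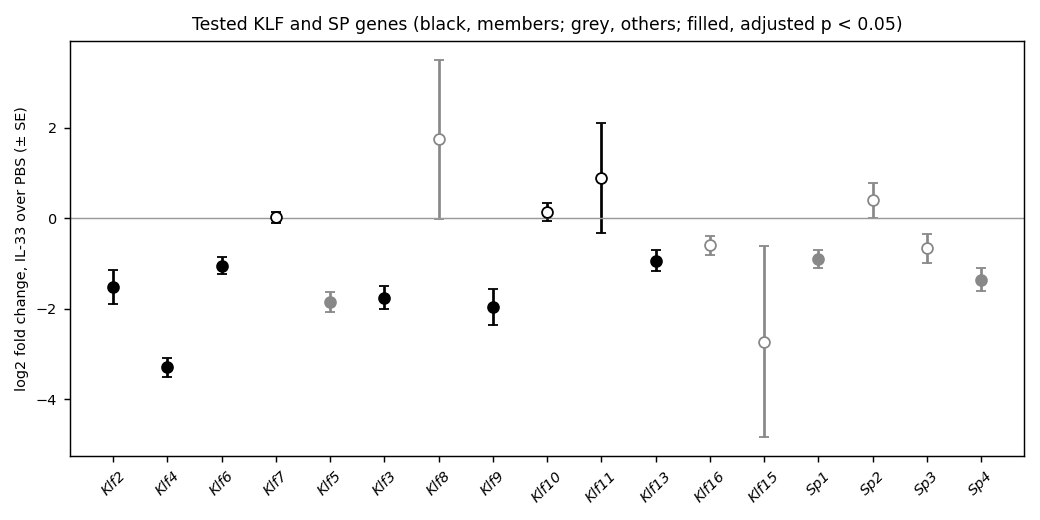
Log2 fold change of IL-33 over PBS with its SE (vertical axis) for the tested KLF and SP genes. Members are black and other genes grey, and filled points were called (adjusted p below 0.05). Klf4 is lowest at -3.30, Klf7 sits at 0.02, and the wide bars of Klf8, Klf11 and Klf15 reflect few counts.

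Genes of the proteins that KLF factors recruit moved in both directions. Of 12 tested co-repressor genes 3 rose and 3 fell, beside 13.7% and 11.6% of all tested genes (median log2 change -0.24). The histone deacetylase genes Hdac1 (log2 change 0.57, edgeR adjusted p = 0.00186) and Hdac3 (0.72, adjusted p = 0.00363) rose, while Hdac2 fell (-0.91, adjusted p = 0.00584). Sin3b, a scaffold of the Sin3 complex, rose from 102 ± 19.0 to 148 ± 6.27 CPM (edgeR adjusted p = 0.0161), and its paralogue Sin3a fell from 53.7 ± 14.8 to 29.5 ± 9.56 CPM (edgeR adjusted p = 0.0424). Rcor1 also fell (log2 change -0.48, edgeR adjusted p = 0.0422). Ctbp1 (log2 change 0.27, edgeR adjusted p = 0.341), and Ncor1 (-0.38, edgeR adjusted p = 0.0958), were not called.

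Of 8 co-activator genes 3 fell and none rose, beside 11.6% and 13.7% of all tested genes (median log2 change -0.65). Crebbp, an acetyltransferase, fell from 259 ± 48.3 to 135 ± 36.8 CPM (edgeR adjusted p = 0.00916). Kat2b, another acetyltransferase (log2 change -1.19, edgeR adjusted p = 0.0122), and Ncoa3 (-1.06, adjusted p = 0.0279) fell with it. Ncoa1 (log2 change -0.78, edgeR adjusted p = 0.0568) and Wdr5 (-0.09, edgeR adjusted p = 0.785) were not called. Scaled by library size alone, 1 co-repressor gene and 0 co-activator genes were called by edgeR, with 3 co-activator genes at an unadjusted p below 0.05.

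Among 10 genes for the turnover of KLF proteins 5 fell, all ubiquitin ligase genes, beside 11.6% of all tested genes (median log2 change -0.57). Fbxw7, the substrate receptor of a ligase that targets several KLF proteins, fell from 44.1 ± 9.37 to 15.9 ± 2.72 CPM (SD over 4 and 5 libraries), with a log2 ratio of -1.47 ± 0.21 (SE) at an edgeR adjusted p of 0.00104. Itch (log2 change -1.10, edgeR adjusted p = 0.00170), Smurf1 (-1.26, adjusted p = 0.00492), Smurf2 (-1.47, adjusted p = 0.00826) and Nedd4 (-0.66, adjusted p = 0.0134) were the others. All 5 were separate between the groups. The deubiquitinase genes Usp9x (log2 change -0.47, edgeR adjusted p = 0.0876) and Bap1 (-0.30, edgeR adjusted p = 0.592) were not called. By library size alone, 3 of the 10 were called, and with DESeq2 6 were lower and 1 was higher.

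The 14 tested genes known upstream of Klf2 and Klf4 include the ERK5 kinase cascade, MEF2 and FOXO genes. Of them 2 fell and none rose, beside 11.6% and 13.7% of all tested genes (median log2 change -0.54). Among those that fell was Map3k2, a kinase at the head of the ERK5 cascade, which went from 62.4 ± 8.08 to 33.1 ± 8.19 CPM (edgeR adjusted p = 0.00855). Map2k5, at 48.1 ± 10.5 and 66.5 ± 8.35 CPM (edgeR adjusted p = 0.0813), and Mef2a, at 58.6 ± 30.7 and 29.6 ± 10.6 CPM (edgeR adjusted p = 0.0829), were not called (SD, n = 4 and n = 5). The count of calls rested on the setting. It was 5 without PBS replicate 3 and with DESeq2, 4 with limma voom and 1 with library size alone.

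The TGF-beta and SMAD route induces Klf10 and Klf11. Of its 13 tested genes 4 fell and none rose, beside 11.6% and 13.7% of all tested genes (median log2 change -0.47). They were the SMAD inhibitors Skil (log2 change -1.07, edgeR adjusted p = 0.0102), Ski (-0.63, adjusted p = 0.0114) and Smad7 (-1.40, adjusted p = 0.0304) and the transducer Smad3 (-0.47, adjusted p = 0.0182). The receptor gene Tgfbr2, at 125 ± 21.4 and 149 ± 20.1 CPM (edgeR adjusted p = 0.251), and Tgif1, at 75.7 ± 19.4 and 94.5 ± 25.8 CPM (edgeR adjusted p = 0.363), were not called. Scaled by library size alone, 0 of the 13 were called by edgeR, with 3 at an unadjusted p below 0.05.

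Klf9 also belongs to the glucocorticoid-responsive genes. Of 13 others tested 6 fell and 1 rose, beside 11.6% and 13.7% of all tested genes (median log2 change -1.12). Zbtb16, which encodes PLZF (log2 change -2.01, edgeR adjusted p = 0.00686), and Dusp1, a MAP kinase phosphatase that is also an early response gene (-1.73, adjusted p = 0.00103), were among those that fell. The others were Errfi1 (-1.69), Tsc22d3, or GILZ (-1.15), Sgk1 (-1.12) and the clock gene Per1 (-1.09). Ddit4, named after its values were seen, rose (log2 change 1.80, edgeR adjusted p = 0.0160). Nr3c1, the glucocorticoid receptor, was at 380 ± 105 CPM (SD, n = 4) and 298 ± 59.2 CPM (SD, n = 5; edgeR adjusted p = 0.259), and Nfkbia at 4690 ± 401 and 3977 ± 449 CPM (edgeR adjusted p = 0.134). With library size alone 3 fell and 1 rose.

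Genes known as targets of KLF2 in lymphocytes did not share a direction. Of 10 tested, 2 rose and 3 fell, beside 13.7% and 11.6% of all tested genes (median log2 change 0.15). S1pr4, a sphingosine phosphate receptor, rose from 20.3 ± 7.10 to 90.6 ± 15.2 CPM (edgeR adjusted p = 3.3e-04), and Plxnd1, a semaphorin receptor, rose too (log2 change 1.14, edgeR adjusted p = 0.0440). The cell cycle inhibitor genes Cdkn1a (log2 change -0.86, edgeR adjusted p = 7.4e-04) and Cdkn1b (-0.91, adjusted p = 0.0283) fell, as did Il7r, the IL-7 receptor chain (-1.28, adjusted p = 0.00306). Itgb7, at 787 ± 183 and 926 ± 84.5 CPM (edgeR adjusted p = 0.296), and Cd44, at 305 ± 35.8 and 414 ± 85.2 CPM (edgeR adjusted p = 0.0776), were not called. S1pr1, the egress receptor that KLF2 drives in T cells, was named after its values were seen: it ran from 1.99 to 6.79 CPM with PBS and from 0.442 to 3.72 CPM with IL-33 (edgeR adjusted p = 0.342). Without PBS replicate 2, IL-33 replicate 3 or IL-33 replicate 5 the calls were 1 higher and 2 lower, and with library size alone 2 higher and 1 lower.

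**Figure D5:**
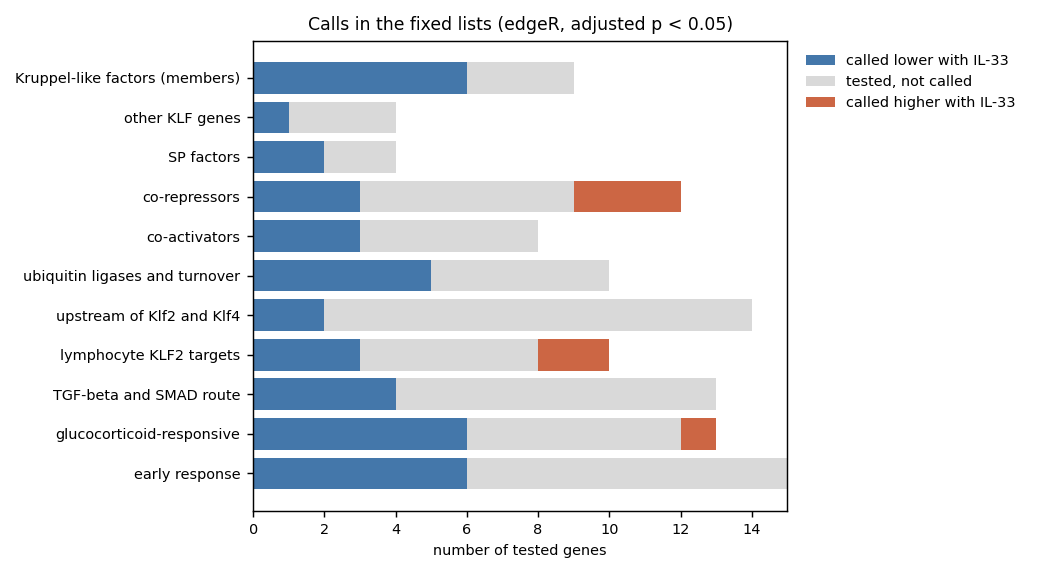
Number of tested genes in each list (horizontal axis) that were called lower, not called or called higher with IL-33 (edgeR, adjusted p below 0.05). Over all tested genes 11.6% were called lower and 13.7% higher. Calls are lower in most lists, and higher calls appear among co-repressors (3), lymphocyte KLF2 targets (2) and glucocorticoid-responsive genes (1).

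The genes whose profiles over the 9 libraries were most like those of Klf6, Klf4, Klf13 and Klf2, the members with the highest mean CPM per kilobase over these libraries, were found by the root mean square difference of log2(CPM + 1), each profile centred on its mean, among 7577 genes. Nearest to Klf6 were Tespa1 (difference 0.122), Zc3h13 (0.137) and Gnaq (0.137), where the median gene differed by 0.70. Nearest to Klf4 were Gvin1 (0.250), Tiparp (0.265) and Stc2 (0.288), with a median of 1.69. Tiparp, which encodes an ADP-ribosyltransferase, stood at 695 ± 163 CPM (SD, n = 4) and 81.6 ± 30.0 CPM (SD, n = 5). Nearest to Klf13 were Il2rg (0.145), the common cytokine receptor gamma chain, Upf2 (0.151) and Tecpr1 (0.160), with a median of 0.68. Nearest to Klf2 were Tbc1d4 (0.257), Prickle3 (0.304) and Prkdc (0.311), with a median of 0.98. The likeness rests largely on the difference between the groups and is a description.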

How the data were processed

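Libraries were made from 5 to 15 ng of RNA with a kit for low input and sequenced paired-end at 150 nt, per the labels' protocols. The authors deposited counts, whole numbers for each Ensembl gene, beside a normalized signal. On the values, that signal was found to be the counts over a constant of each library. The tools named are STAR 2.7.7a, Salmon 1.6.0, DESeq2, Trimmomatic 0.39, FastQC 0.11.9 and Picard, with the build GRCm38.p6, per the submitters' processing notes. Tool roles, annotation and strand setting: not given in the sources used here.

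Symbols (for 20607 genes, 99.4%), coordinates and exon lengths came from GENCODE M21 (GRCm38), and promoter sequences from RefSeq (GRCm38.p6). Counts were tested across all genes with edgeR 4.0.16 in R 4.3.3 (TMM, minimum count 10 in filterByExpr, quasi-likelihood F-test with robust fitting, two-sided, Benjamini-Hochberg over 14405 genes). The SE was taken from the F statistic. P-values measure the spread between libraries. The members and lists were chosen with earlier results of these data known. All members and other KLF genes are named. Each list names up to 6 called genes by smallest adjusted p and the 2 most abundant not called, and 3 genes of like pattern are named for each of 4 members. The values of 1 listed gene are not reported here. The edgeR step was tested on simulated data. None of the 16 replicate pairs came within sampling noise (chi-square over its degrees of freedom at least 52.6). Alternatives were RLE scaling, library size alone, other filters, a replicate block, limma 3.58.1 (voom, and trend, run on the deposited signal as log2 with 1 added), the DESeq2 1.42.0 Wald test, acinar genes removed, a threshold of 0.01 and leaving out each library. The acinar and endothelial shares of each library's total count (log2, without TMM) as covariates were added after seeing the data.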

Additional observations from a re-analysis of the deposited data

Results flagged for a closer look

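Among 14 KLF genes in the 2 groups (28 sets of libraries), 2 sets held a library far from the rest, and chance alone flags about 1 in 20. Klf8 was at 2.59 CPM in PBS replicate 1 (51 counts) and had 0 counts in the other PBS libraries, while IL-33 replicates 1, 2, 3 and 5 had 84, 50, 37 and 39 counts. Klf15 was at 16.3 CPM in PBS replicate 4 (171 counts), the library richest in acinar transcripts, with 0 counts in the other PBS libraries. The part of the acinar content in the Klf15 reads was not tested.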

How the results depend on the processing

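When each library was left out in turn, 2676 to 3695 genes were called. The same 6 members kept a call in all 9 of these fits. The calls ran from 2 to 5 among genes upstream of Klf2 and Klf4 and from 3 to 5 among lymphocyte KLF2 targets, and the log2 change ran from -0.04 to 0.06 for Klf7 and, over the 6 of these fits in which it was tested, from -3.14 to 6.59 for Klf15, a fitted value that is no bound. That of Klf11 ran from 0.46 to 2.31.

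With library size alone, which moved the median of all genes by 0.13 on the log2 scale and left 67.4% of calls higher in place of 54.1%, 1976 genes were called. Calls were then 1 among SP factors, 1 among co-repressors, 0 among co-activators, 3 among turnover genes, 1 upstream of Klf2 and Klf4, 3 among KLF2 targets, 0 in the TGF-beta route and 4 among glucocorticoid-responsive genes.

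Equal replicate numbers did not pair the libraries (correlations of their deviations from the group means -0.06 to 0.07). With the replicate block 1457 genes were called, 3 members lower (Klf3, Klf4 and Klf6, but not Klf2, Klf9 or Klf13), 1 SP factor, 3 co-repressors, 3 turnover genes, 1 upstream gene, 3 KLF2 targets, 0 in the TGF-beta route and 4 glucocorticoid-responsive genes. Log2 changes under the block were 2.83 for Klf11, -0.05 for Klf7 and 4.11 for Klf15.

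The upstream list had 4 calls with limma voom and 5 with DESeq2, and other KLF genes 2 with DESeq2 and 2 with limma-trend. At a threshold of 0.01, 1786 genes, 3 co-repressors, 1 co-activator, 3 KLF2 targets and 0 genes of the TGF-beta route were called, and 4 members lower (not Klf2 or Klf13). With the endothelial share as a covariate, which nearly separates the groups, 235 genes were called in all. There 1 member, Klf4, was called, and edgeR called 0 genes among other KLF genes, SP factors, co-repressors, co-activators, turnover genes, upstream genes, KLF2 targets, the TGF-beta route and the glucocorticoid-responsive genes. The early response list had 6 calls there, as without the covariate. At an unadjusted p below 0.05 the lists without calls held 1, 2, 5, 0, 4, 2, 4, 3 and 5 genes in that order, and the TGF-beta route held 3 with library size alone, 4 with the block and 5 in the fit read at the 0.01 threshold.

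Klf7 took a negative sign with RLE (-0.02), a minimum of 5 CPM in 4 or more libraries (-0.01), DESeq2 (-0.02), limma-trend (-0.03) and the endothelial covariate (-0.16). Klf10 did so with the endothelial covariate (-0.02). Klf15 took a positive sign with limma voom (1.13), limma-trend (0.40) and the acinar covariate (2.32). The causes were not tested. Few counts limit what can be said of Klf8, Klf11, Klf12 and Klf15.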
